A study of Solanum lycopersicum with 8 samples.

Results

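In young tomato leaves, 23 of 34722 gene identifiers carried less RNA after gibberellin in the cultivar M82 and also less RNA in the procera mutant pro∆GRAS that had received no gibberellin. They were chosen from the read counts themselves. Each had a mean of at least 2 CPM (reads of a gene out of every 1000000 counted) over the 8 libraries, and both M82 libraries without GA3 lay at least 0.5 above both M82 libraries with GA3 on the scale log2(CPM + 0.5). Both M82 libraries without GA3 also lay at least 0.5 above both mutant libraries without GA3, and the mutant mean with GA3 minus that without GA3 was above -0.3. The same 2 M82 libraries without GA3 entered both conditions, so a gene that happened to be high in these libraries was favoured by each. The drop with GA3 in M82, the drop in the mutant and the lower bound on the mutant response are therefore descriptions here, and none of them is a test.

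Gibberellins are plant hormones that promote growth. They bind a receptor of the GID1 family, and the bound receptor marks DELLA proteins for destruction. DELLA proteins, of which tomato has PROCERA, hold back growth, and they also raise the transcription of some genes by acting with DNA-binding proteins. In Arabidopsis the genes raised in this way include some for gibberellin synthesis and perception, a feedback that restores the hormone response. Paclobutrazol blocks gibberellin synthesis, which lets DELLA protein build up. Transcripts raised by DELLA would be high under paclobutrazol and lower both after added gibberellin and in a procera mutant. The counts do not show how any of the 23 genes is controlled.

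All seedlings had been treated with 10 mg/l paclobutrazol daily for 3 days, in every group. The groups were pro∆GRAS given 100 µM GA3 and collected 3 hours later, pro∆GRAS without GA3, M82 given the same GA3 application, and M82 without GA3, with 2 libraries each. M82 is the cultivar with functional PROCERA, and pro∆GRAS is a mutant of that gene, named "null" in the deposited table. The labels do not say whether a library came from 1 plant or from several, so the spread between libraries may be partly technical. The identifiers were not paired with gene names in the sources used here, so the genes are given by identifier, the number after "Solyc" being the chromosome. For the same reason the PROCERA transcript, leaf markers and the other genes of the gibberellin pathway were not analysed here. Total counts ran from 14395465 to 18483028 per library, so that 1 CPM stood for 14.4 to 18.5 reads. M82 library 3 without GA3 and M82 library 2 with GA3 stood apart in scaling, with TMM factors of 0.861 and 0.811 against 1.01 to 1.16 in the other 6 libraries. Libraries carry the number used in the table.

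Of the 14393 genes averaging 2 CPM or more, 178 met the condition on GA3 in M82 and 194 met the condition on the mutant without GA3. The 30 genes that met both included 7 whose mutant level after GA3 was at or below the bound. Solyc03g006880.2, which is left out of the 23 by name, was 1 of these 7, at -0.51. The 148 genes lowered by GA3 alone and the 164 genes low in the mutant alone are not described further. The thresholds cut through a continuous range. Just inside the M82 gap were Solyc06g063070.2 at 0.51, Solyc12g008800.1 at 0.53 and Solyc01g103650.2 at 0.54, and just outside it were Solyc03g083560.1 at 0.47, Solyc01g098560.2 at 0.46 and Solyc06g066210.1 at 0.45. Just inside the genotype gap were Solyc01g010190.2 at 0.52, Solyc10g084230.1 at 0.56 and Solyc08g075510.2 at 0.57, and just outside it were Solyc12g099900.1 at 0.4996, Solyc04g015940.2 at 0.49 and Solyc07g063860.2 at 0.47. At the bound on the mutant response, Solyc01g103650.2 at -0.26, Solyc06g063070.2 at -0.22 and Solyc04g009860.2 at -0.16 were inside, and Solyc07g066560.1 at -0.38, Solyc09g074270.2 at -0.40 and Solyc01g008910.2 at -0.54 were outside. A further 24 genes met every condition except the mean level. The highest of these were Solyc05g015330.1 at 1.95 CPM, Solyc03g095980.2 at 1.82 CPM and Solyc02g091710.2 at 1.67 CPM, against 2.11 CPM for Solyc08g075510.2, 2.25 CPM for Solyc00g174340.1 and 2.46 CPM for Solyc03g095310.2 inside. Over the 6 libraries other than the M82 controls, 6 of the 23 genes had a mean under 2 CPM, so these passed the level condition through the group in which they were chosen to be high. They were Solyc00g174340.1, Solyc01g059940.2, Solyc03g095310.2, Solyc04g009860.2, Solyc08g075510.2 and Solyc10g084230.1.

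**Figure D1:**
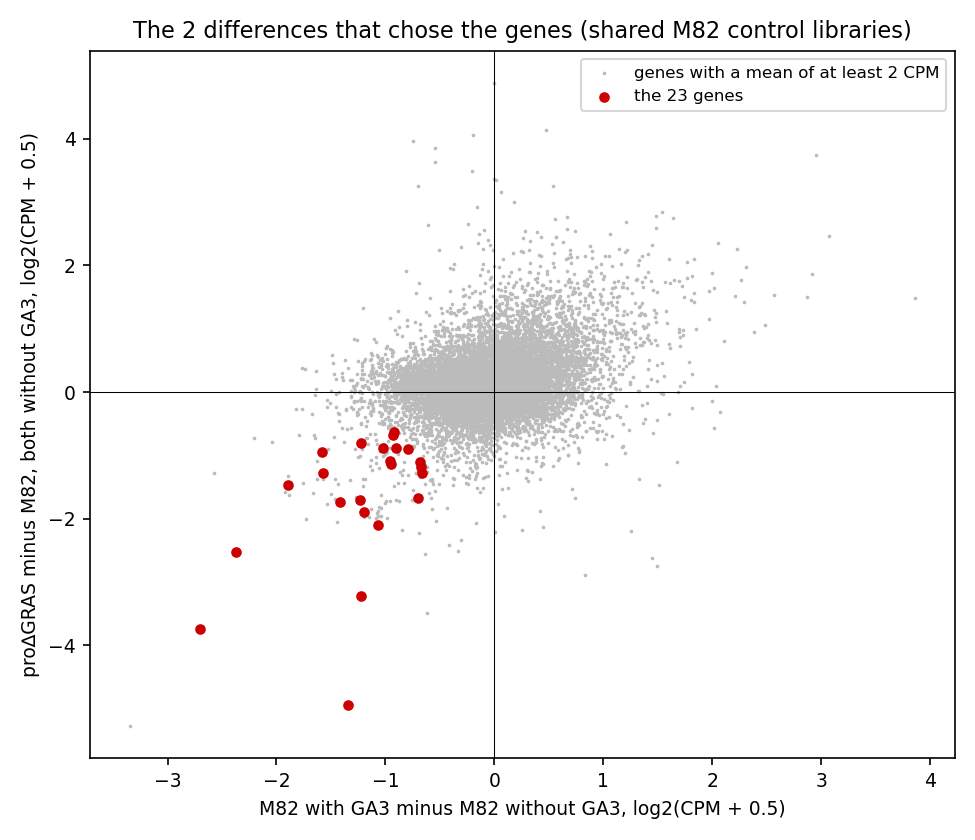
Log2 difference between M82 with and without GA3 (horizontal axis) and between pro∆GRAS and M82, both without GA3 (vertical axis), on log2(CPM + 0.5). Grey points are the 14393 genes averaging 2 CPM or more and red points the 23 genes, which lie at -0.66 or lower on the horizontal axis and -0.63 or lower on the vertical axis because they were chosen there; both axes subtract the same M82 libraries.

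The 23 genes spanned a wide range of abundance. In M82 without GA3, 3 of them exceeded 100 CPM, 10 lay between 10 and 100 CPM and 10 lay under 10 CPM. The median of their group means was 4.52 CPM in the mutant with GA3, 3.06 CPM in the mutant without GA3, 4.35 CPM in M82 with GA3 and 10.6 CPM in M82 without GA3. Relative to M82 without GA3, the median log2 difference was -1.06 with GA3 in M82, with a range of -2.70 to -0.66, and -1.27 in the mutant without GA3, with a range of -4.94 to -0.63. Over all 14393 genes these medians were -0.05 and 0.09. In leaf tissue of many cell types, fewer cells of a type and less RNA per cell cannot be told apart.

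**Figure D2:**
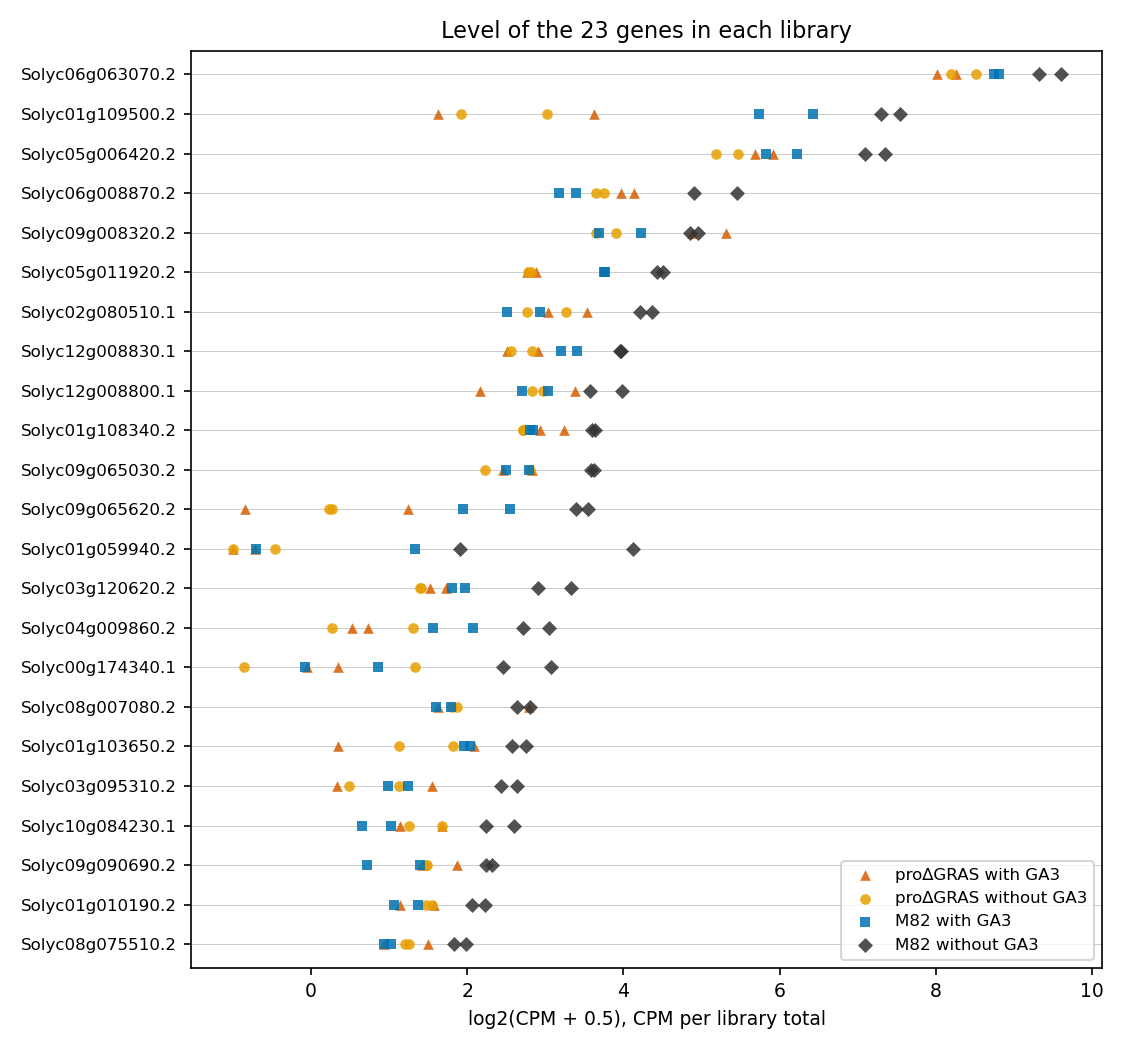
Level of each of the 23 genes in every library as log2(CPM + 0.5), with genes ordered by their mean in M82 without GA3. Each point is 1 library; the black diamonds (M82 without GA3) lie to the right of both blue squares and both yellow circles of every gene because the genes were chosen so, while triangles (pro∆GRAS with GA3) reach the diamonds in Solyc09g008320.2 and Solyc08g007080.2.

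The conditions placed M82 with GA3 and the mutant without GA3 below the same controls but set no order between them, so this order was not fixed. Both groups had nevertheless entered the conditions, and the shares over all genes below are given as background to a description. In 10 of the 23 genes both M82 libraries with GA3 stayed above both mutant libraries without GA3, a pattern found in 15.9% of the 14393 genes. In 6 genes both mutant libraries lay above both M82 libraries with GA3, a pattern found in 32.9% of all genes, and in 7 genes the groups overlapped. These shares depend on scaling, because the median of all genes for the mutant without GA3 minus M82 with GA3 was 0.15 on library totals and -0.01 on TMM-scaled sizes. With TMM the counts were 13 genes with M82 with GA3 higher, against 27.1% of all genes, and 2 with the mutant higher, against 25.2%. The median log2 difference of the 23 genes was -0.18 on totals, or -0.33 relative to all genes, and -0.35 on TMM, again -0.33 relative to all genes. On totals it was -0.09 and -0.39 without M82 libraries 1 and 2 with GA3, and -0.42 without mutant library 3 without GA3.

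Of the 10 genes in which M82 with GA3 remained between its own control and the mutant, some no longer met the conditions with TMM-scaled sizes. These were Solyc01g103650.2, Solyc01g108340.2, Solyc05g011920.2, Solyc06g063070.2 and Solyc12g008830.1. The most separated of the 10 was Solyc01g109500.2. It had 2.59 and 11.8 CPM in the mutant with GA3, 3.30 and 7.65 CPM in the mutant without GA3, 85.3 and 52.7 CPM in M82 with GA3, and 157 and 185 CPM in M82 without GA3. The 2 genotypes were thus further apart than the GA3 treatments of M82, and the GA3 drop in M82 was 27.1% of the log2 genotype difference. Such shares divide 2 chosen differences that subtract the same M82 controls. They are given on library totals and were not computed with TMM-scaled sizes. Solyc09g065620.2 had 0.0551 and 1.88 CPM in the mutant with GA3, 0.703 and 0.675 CPM in the mutant without GA3, 5.35 and 3.36 CPM in M82 with GA3, and 11.2 and 10.0 CPM in M82 without GA3. Its GA3 drop was 37.9% of the genotype difference on the log2 scale, and the mutant value of 0.0551 CPM was a single read. Solyc05g011920.2 had 6.89 and 6.27 CPM in the mutant with GA3, 6.55 and 6.35 CPM in the mutant without GA3, 13.0 and 13.1 CPM in M82 with GA3, and 21.0 and 22.2 CPM in M82 without GA3. The libraries of each group lay close together for this gene on library totals. Its drop with GA3 was 42.3% of the genotype difference.

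Solyc04g009860.2 had 1.16 and 0.938 CPM in the mutant with GA3, 0.703 and 1.97 CPM in the mutant without GA3, 3.72 and 2.45 CPM in M82 with GA3, and 6.06 and 7.78 CPM in M82 without GA3. Solyc12g008830.1 had 5.18 and 6.97 CPM in the mutant with GA3, 6.60 and 5.40 CPM in the mutant without GA3, 10.1 and 8.70 CPM in M82 with GA3, and 15.2 and 15.1 CPM in M82 without GA3. In these genes M82 with GA3 stood about midway, at 50.8% and 52.2% of the log2 distance. Solyc06g063070.2, the most abundant of the 23, had 257 and 306 CPM in the mutant with GA3, 292 and 363 CPM in the mutant without GA3, 446 and 428 CPM in M82 with GA3, and 635 and 773 CPM in M82 without GA3. Solyc05g006420.2 had 60.0 and 51.0 CPM in the mutant with GA3, 35.9 and 43.5 CPM in the mutant without GA3, 73.8 and 56.1 CPM in M82 with GA3, and 136 and 162 CPM in M82 without GA3. These abundant transcripts rested on at least 663 reads in every library.

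Solyc01g103650.2 had 0.771 and 3.75 CPM in the mutant with GA3, 1.68 and 3.04 CPM in the mutant without GA3, 3.38 and 3.58 CPM in M82 with GA3, and 5.44 and 6.25 CPM in M82 without GA3. The mutant libraries with GA3 differed widely for this gene and enclosed both M82 values with GA3. Solyc03g120620.2 had 2.37 and 2.81 CPM in the mutant with GA3, 2.16 and 2.14 CPM in the mutant without GA3, 2.98 and 3.41 CPM in M82 with GA3, and 9.53 and 7.02 CPM in M82 without GA3. Solyc01g108340.2 had 7.11 and 8.91 CPM in the mutant with GA3, 6.06 and 6.07 CPM in the mutant without GA3, 6.70 and 6.48 CPM in M82 with GA3, and 11.9 and 11.6 CPM in M82 without GA3. In Solyc01g108340.2 the step between M82 with GA3 and the mutant without GA3 was small, at -0.11 on the log2 scale.

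In 6 genes the mutant without GA3 lay above M82 with GA3, so M82 lay below the mutant 3 hours after GA3. Solyc06g008870.2 had 15.2 and 17.1 CPM in the mutant with GA3, 13.0 and 12.0 CPM in the mutant without GA3, 8.50 and 10.0 CPM in M82 with GA3, and 29.3 and 43.3 CPM in M82 without GA3. Its log2 drop with GA3 was 128% of its genotype difference. Solyc10g084230.1 had 1.71 and 2.70 CPM in the mutant with GA3, 1.89 and 2.70 CPM in the mutant without GA3, 1.07 and 1.54 CPM in M82 with GA3, and 4.22 and 5.56 CPM in M82 without GA3. Solyc09g090690.2 had 3.14 and 2.17 CPM in the mutant with GA3, 2.27 and 2.31 CPM in the mutant without GA3, 2.14 and 1.14 CPM in M82 with GA3, and 4.49 and 4.24 CPM in M82 without GA3. These carried the highest shares, 166% in Solyc10g084230.1 and 153% in Solyc09g090690.2.

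Solyc01g010190.2 had 2.48 and 1.70 CPM in the mutant with GA3, 2.27 and 2.42 CPM in the mutant without GA3, 2.08 and 1.59 CPM in M82 with GA3, and 3.67 and 4.17 CPM in M82 without GA3. Solyc08g075510.2 had 2.31 and 1.41 CPM in the mutant with GA3, 1.89 and 1.80 CPM in the mutant without GA3, 1.41 and 1.54 CPM in M82 with GA3, and 3.06 and 3.47 CPM in M82 without GA3. Solyc08g007080.2 had 2.59 and 6.45 CPM in the mutant with GA3, 3.14 and 2.98 CPM in the mutant without GA3, 2.53 and 2.96 CPM in M82 with GA3, and 5.72 and 6.46 CPM in M82 without GA3. The order of mutant without GA3 above M82 with GA3 stayed free of overlap with TMM-scaled sizes in Solyc01g010190.2 and Solyc09g090690.2, and the groups overlapped there in the other 4 genes.

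In 7 genes these groups overlapped. Solyc01g059940.2 had 0.110 and 0 CPM in the mutant with GA3, 0 and 0.225 CPM in the mutant without GA3, 2.03 and 0.114 CPM in M82 with GA3, and 16.9 and 3.26 CPM in M82 without GA3. The M82 controls differed by 2.21 on the log2 scale, and M82 library 1 without GA3 held the higher value. A count of 0 in these mutant libraries allows up to 0.162 CPM without GA3 and 0.176 CPM with GA3, counting error only. Solyc00g174340.1, whose identifier carries no numbered chromosome, had 0.771 and 0.469 CPM in the mutant with GA3, 0.0541 and 2.02 CPM in the mutant without GA3, 0.451 and 1.31 CPM in M82 with GA3, and 7.89 and 5.002 CPM in M82 without GA3. All 6 libraries other than the controls were at or below 2.03 CPM in both genes.

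Solyc03g095310.2 had 2.42 and 0.762 CPM in the mutant with GA3, 1.68 and 0.900 CPM in the mutant without GA3, 1.86 and 1.48 CPM in M82 with GA3, and 4.90 and 5.70 CPM in M82 without GA3. Solyc02g080510.1 had 11.1 and 7.68 CPM in the mutant with GA3, 6.28 and 9.11 CPM in the mutant without GA3, 5.18 and 7.11 CPM in M82 with GA3, and 20.1 and 18.0 CPM in M82 without GA3. In both, the mutant libraries and the M82 libraries with GA3 lay beneath the M82 controls. In Solyc02g080510.1 both mutant libraries with GA3 also lay above both M82 libraries with GA3 on library totals. Solyc09g065030.2 had 5.01 and 6.62 CPM in the mutant with GA3, 4.17 and 6.47 CPM in the mutant without GA3, 6.42 and 5.12 CPM in M82 with GA3, and 11.8 and 11.5 CPM in M82 without GA3. Solyc12g008800.1 had 3.97 and 9.90 CPM in the mutant with GA3, 6.60 and 7.31 CPM in the mutant without GA3, 7.72 and 6.03 CPM in M82 with GA3, and 15.3 and 11.4 CPM in M82 without GA3. Solyc09g008320.2 had 28.9 and 39.3 CPM in the mutant with GA3, 14.4 and 12.0 CPM in the mutant without GA3, 18.2 and 12.3 CPM in M82 with GA3, and 28.4 and 30.6 CPM in M82 without GA3. In this gene the mutant given GA3 lay with the M82 controls, and the other groups lay lower.

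**Figure D3:**
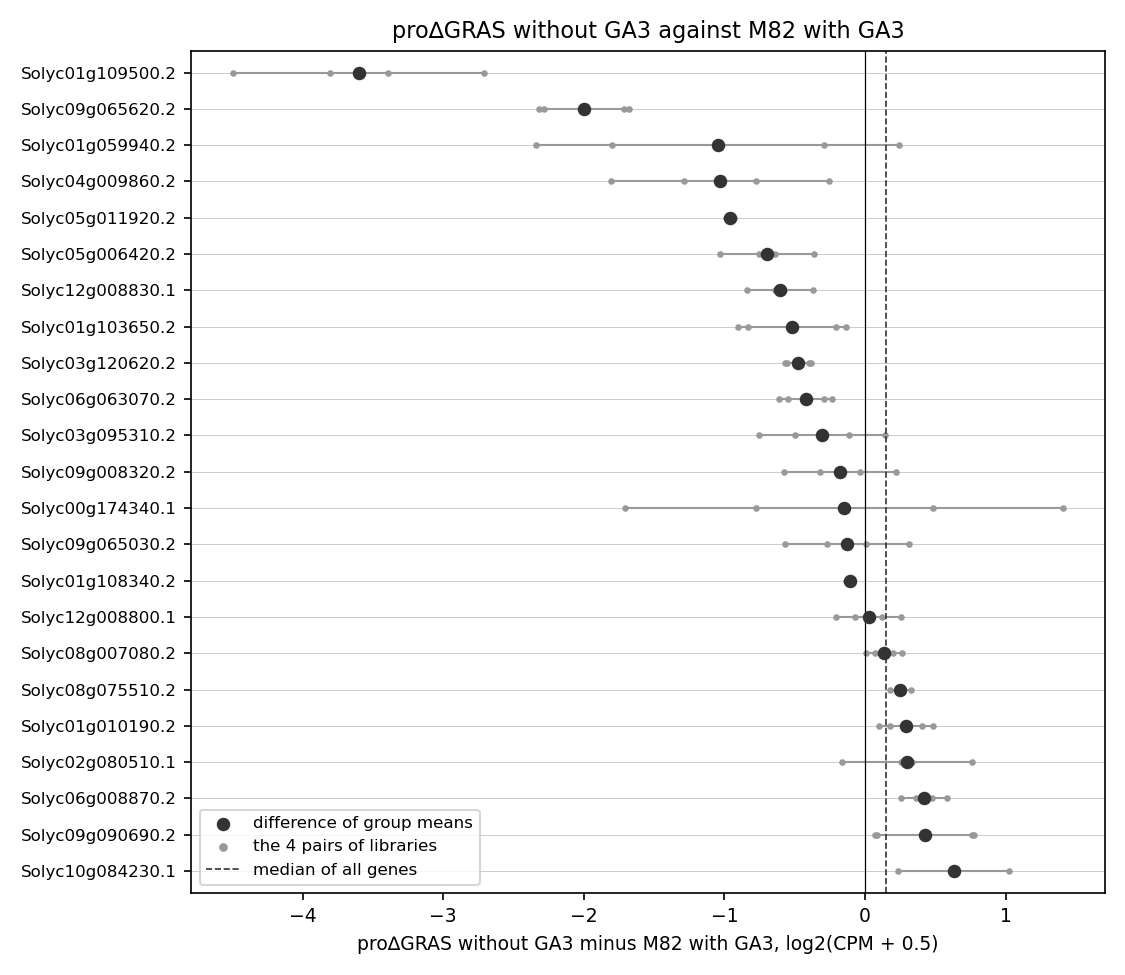
Log2 difference between pro∆GRAS without GA3 and M82 with GA3 for the 23 genes on log2(CPM + 0.5), with black points for the difference of group means, grey points for the 4 pairs of libraries and a dashed line at the median of all genes, 0.15. Values run from -3.60 in Solyc01g109500.2 to 0.63 in Solyc10g084230.1.

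Tested across all genes, edgeR's quasi-likelihood test called none of the 23 genes between the mutant without GA3 and M82 with GA3 at an adjusted p under 0.05. That test called 0.0709% of 18340 genes lower and 0.06% higher, and 8 of the 23 genes were lower at an unadjusted p under 0.05, a level that 6.47% of all genes reached in that direction. DESeq2 called 3 of the 23 lower, against 1.07% of all genes, and none higher, against 0.946%. These were Solyc01g109500.2 (edgeR log2 difference -3.79, SE 0.674, adjusted p = 0.0804), Solyc05g011920.2 (-1.20, SE 0.247, adjusted p = 0.108) and Solyc09g065620.2 (-2.79, SE 0.839, adjusted p = 0.236). The edgeR count was 3 in a fit of the 4 compared libraries alone, for which the share of all genes called was not computed. This comparison changes genotype and treatment at once, and it was added with the values known. Both of its groups had entered the choice of genes, so these counts and shares are descriptions only.

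In the mutant, the choice of genes had set a bound on drops with GA3 and none on rises, and it had asked for low mutant libraries without GA3, which favours rises. The median log2 difference of the 23 genes with GA3 was 0.03, within a range of -0.26 to 1.32, against a median of 0.12 over all 14393 genes. Relative to all genes the median was -0.10 on library totals and -0.08 with TMM. Both mutant libraries with GA3 exceeded both without GA3 in 5 genes, or 21.7%, against 26.9% of all genes, and in none was the order the opposite, against 6.57%. With TMM-scaled sizes the counts were 4, against 14% of all genes, and 3, against 14.9%. The median was -0.09 with TMM, and on totals it was 0.17 without mutant library 3 without GA3, 0.21 and 0.07 without mutant libraries 1 and 3 with GA3, and 0.01 without mutant library 1 without GA3. No gene among the 23 was called for GA3 in the mutant by edgeR, which called 0% of all genes, or by DESeq2, which called 0.166%. By either tool, 1 of them had an unadjusted p under 0.05, as did 2.67% of all genes by edgeR and 2.33% by DESeq2.

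The 5 genes with higher levels in both mutant libraries after GA3 were Solyc09g008320.2, with a log2 difference of 1.32, Solyc05g006420.2 (0.48), Solyc01g108340.2 (0.37), Solyc06g008870.2 (0.36) and Solyc03g120620.2 (0.22). In M82 the same differences were -0.95, -1.20, -0.79, -1.89 and -1.23. The order in the mutant stayed free of overlap with TMM-scaled sizes except in Solyc03g120620.2. In Solyc09g008320.2 the mutant with GA3 averaged 34.1 ± 7.35 CPM and the mutant without GA3 13.2 ± 1.71 CPM, while M82 with GA3 averaged 15.3 ± 4.14 CPM and M82 without GA3 29.5 ± 1.55 CPM (SD, n = 2 each). Read counts behind it ran from 214 to 670 per library. Whether the GA3 differences of the genotypes differed was not tested, since both entered the choice of genes.

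**Figure D4:**
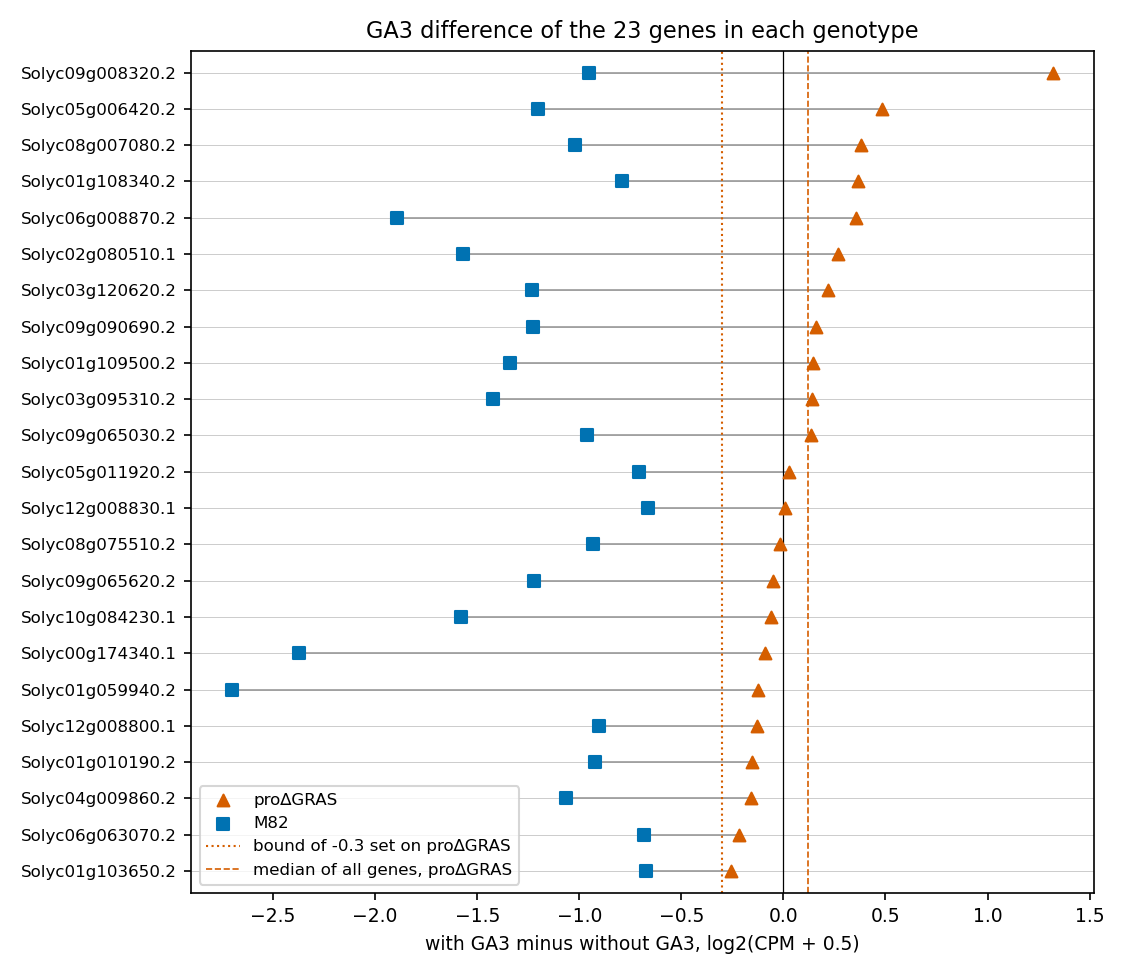
Log2 difference with GA3 minus without GA3 on log2(CPM + 0.5) for the 23 genes in pro∆GRAS (triangles) and M82 (squares), ordered by the mutant value. The dotted line is the bound of -0.3 that the choice of genes set on the mutant and the dashed line the mutant median of all genes, 0.12; Solyc09g008320.2 stands apart at 1.32.

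With GA3 in both genotypes, the median difference between them was closer to 0 than without GA3. The mutant minus M82 difference with GA3 had a median of -0.17 in the 23 genes, against 0.29 over all 14393 genes, and ran from -3.46 in Solyc01g109500.2 to 1.14 in Solyc09g008320.2. With TMM the median was -0.41, against -0.01 over all genes. On totals it was -0.02 without M82 library 1 with GA3, and -0.08 and -0.10 without mutant libraries 1 and 3 with GA3. M82 with GA3 was itself chosen to be low, which pushes this difference upward. The mutant without GA3 was also chosen to be low, which favours low mutant levels with GA3 and pushes the difference downward. The difference without GA3 was chosen to be large, so the median closer to 0 with GA3 and the counts here are descriptions only. On library totals both mutant libraries were below both M82 libraries in 8 genes, against 10.7% of all genes. They were above in 6, against 42.7%. With TMM-scaled sizes the counts were 10 below and 2 above. Shares of all genes with TMM were not computed for this pair, and those on totals depend on scaling. The 8 genes were Solyc01g109500.2, Solyc09g065620.2, Solyc04g009860.2, Solyc01g059940.2, Solyc05g011920.2, Solyc06g063070.2, Solyc12g008830.1 and Solyc03g120620.2, and all 8 remained so with TMM. Of the 6 higher genes, Solyc06g008870.2 and Solyc09g008320.2 remained so with TMM, whereas Solyc01g108340.2, Solyc02g080510.1, Solyc09g090690.2 and Solyc10g084230.1 did not. By edgeR none of the 23 was called with GA3, against 0.164% of all genes lower and 0.191% higher, with 7 lower and 1 higher at an unadjusted p under 0.05, where 7.41% and 7.31% of all genes were. DESeq2 called 4 lower, against 1.59% of all genes, and none higher, against 1.65%. These were Solyc01g109500.2, Solyc04g009860.2, Solyc05g011920.2 and Solyc09g065620.2.

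The mutant given GA3 was also set against the M82 controls. The controls were chosen to be high and the mutant to be low without GA3, so this order follows largely from the choice and nothing is read from its count. In 21 of the 23 genes both M82 control libraries were above both mutant libraries with GA3, against 8.48% of all genes. The exceptions were Solyc09g008320.2, with 28.9 and 39.3 CPM in the mutant with GA3 against 28.4 and 30.6 CPM in the controls, and Solyc08g007080.2, where mutant library 3 with GA3 was at 6.45 CPM against 5.72 and 6.46 CPM in the controls, while mutant library 1 with GA3 was at 2.59 CPM.

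For the contrasts that chose the genes, calls are given as description only. In M82, edgeR called none of the 23 genes lower with GA3, as it called 0% of all genes lower, and DESeq2 called Solyc02g080510.1, Solyc05g006420.2 and Solyc06g008870.2, where it called 0.0939% of all genes. At an unadjusted p under 0.05, 19 of the 23 were lower by edgeR, as were 3.04% of all genes. Between the genotypes without GA3, edgeR called 4 genes lower in the mutant, where it called 0.0981% of all genes. These were Solyc01g109500.2, Solyc03g120620.2, Solyc05g006420.2 and Solyc05g011920.2. DESeq2 called these and 8 others, 12 in all, where it called 0.647% of all genes. The edgeR count of 4 was 1 without M82 library 3 without GA3, 2 without either M82 library with GA3, and 0 without either mutant library without GA3.

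The membership of the set was sensitive to scaling and to single libraries. With TMM-scaled sizes the conditions again gave 23 genes, of which 17 were among those described. Solyc01g010190.2, Solyc01g103650.2, Solyc01g108340.2, Solyc05g011920.2, Solyc06g063070.2 and Solyc12g008830.1 dropped out. Leaving out M82 library 1 or 3 without GA3 gave 220 and 263 genes, because the remaining control alone then set the minimum, and each list held 20 of the 23. The number was 53 without M82 library 1 with GA3, and 41 and 58 without mutant libraries 1 and 3 without GA3, with 23, 17 and 23 of the genes described. Without both libraries that stood apart, the conditions gave 282 genes, of which 21 were among the 23. Libraries of a group differed from each other by a median of 0.44 on the log2 scale over the 23 genes in the mutant with GA3, 0.27 in the mutant without GA3, 0.30 in M82 with GA3 and 0.18 in M82 without GA3. Over all genes the medians were 0.29, 0.26, 0.37 and 0.41. The conditions ask that both controls be high, and they set nothing on the spread of the mutant with GA3. Some library held under 20 reads for 7 of the 23 genes.

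By their identifiers the 23 genes lay on 10 of the 12 chromosomes, with 5 on chromosome 1, 4 on chromosome 9, and none on chromosomes 7 and 11. Chromosome 9 holds 7.32% of the 14393 genes and chromosome 1 holds 13.0%. None of the 23 had another as its immediate neighbour in identifier order, and of the 46 immediate neighbours, 22 averaged 2 CPM or more and none of these met either condition. Of the less abundant neighbours, Solyc00g174330.2 at 0.793 CPM met both gap conditions next to Solyc00g174340.1, Solyc08g075500.2 at 0.748 CPM met the one on GA3 in M82 and Solyc06g063060.2 at 1.39 CPM the one on the mutant. The closest pair, Solyc12g008800.1 and Solyc12g008830.1, was separated by 2 identifiers. Between them, Solyc12g008810.1 had 7.88 and 5.33 CPM in the mutant with GA3, 5.46 and 6.30 CPM in the mutant without GA3, 6.76 and 5.40 CPM in M82 with GA3, and 6.87 and 8.54 CPM in M82 without GA3. Solyc12g008820.1 had 2.70 and 2.11 CPM in the mutant with GA3, 3.90 and 2.53 CPM in the mutant without GA3, 2.25 and 2.33 CPM in M82 with GA3, and 3.81 and 2.64 CPM in M82 without GA3. In Solyc12g008810.1 the M82 controls lay above the mutant without GA3 and M82 with GA3 by less than the gap of 0.5, and overlapped the mutant with GA3. In Solyc12g008820.1 they overlapped the mutant with and without GA3 and lay above M82 with GA3, again by less than the gap.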

How the data were processed

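Raw read counts per gene identifier, as deposited by the authors, were analysed for 8 libraries. A second block of 8 columns, normalized counts per the file headers, was not used. HTSeq 0.6.1p1, DESeq2 1.6.3 and TopHat2 2.0.10 appear in the submitters' processing notes; build, annotation and counting options are not given in the sources used here. The TruSeq kit named in the labels' protocols does not mark strand, so overlapping antisense genes cannot be told apart. By name, 5 columns matched a sample title and 3 their group only. The libraries within each group were not copies of each other (chi-square per degree of freedom 34.1 to 82.4). Pairs of libraries from different groups were not checked for copies.

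CPM were computed from column totals, with a pseudocount of 0.5 for log2. The genes and lists were chosen with earlier results of these data known. All 23 genes are named. Of 34722 identifiers, 0 matched the 41476 genes of the reference table, so 19 gene lists and 7 promoter motifs could not be applied. Tests used edgeR 4.0.16 (quasi-likelihood, robust, TMM, filterByExpr with minimum count 10, 18340 genes, 4 groups, 4 residual degrees of freedom, R 4.3.3), checked on simulated counts, with Benjamini-Hochberg adjusted p under 0.05 as a call; all 23 genes passed the filter. DESeq2 1.42.0, other scalings, filters, pseudocounts, thresholds, a replicate block and leaving out libraries were alternatives. The comparison of the mutant without GA3 with M82 with GA3, a block that sets libraries numbered 1 apart from the rest, and leaving out the libraries that stand apart together were chosen after seeing the data. Intervals for counts of 0 (3 reads) cover counting error only.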

Additional observations from a re-analysis of the deposited data

Results flagged for a closer look

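In 5 of the 23 genes, or 21.7%, both mutant libraries were higher with GA3 than without. Both M82 libraries were lower with GA3 in these genes, so the differences of the group means had opposite signs. The log2 differences with GA3 in the mutant were 1.32 in Solyc09g008320.2, 0.481 in Solyc05g006420.2, 0.365 in Solyc01g108340.2, 0.355 in Solyc06g008870.2 and 0.218 in Solyc03g120620.2. In the same order, edgeR with TMM gave 1.23 (SE 0.259), 0.334 (SE 0.254), 0.260 (SE 0.264), 0.228 (SE 0.311) and 0.126 (SE 0.339). It called none of these genes. On library totals 26.9% of all genes were higher in both mutant libraries with GA3, so the count is no result about the 23 genes. The direction in M82 was set by the choice of genes, which also asked for low mutant libraries without GA3, and the difference between genotypes was not tested. The order of Solyc03g120620.2 overlapped with TMM-scaled sizes.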

How the results depend on the processing

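The 5 median differences moved by less than the spread between libraries under every alternative run. That spread came from the 2 libraries of each group, and leaving out a library moves its group mean by less than this. For single libraries the outcome was therefore nearly fixed in advance, and no stability is read from it. Medians near 0 moved by over 1.5 times without single libraries, as given with each. The median for the mutant without GA3 against M82 with GA3 was -0.33 with a pseudocount of 0.25, and the median for GA3 in the mutant was 0.15 in genes averaging 5 CPM or more. The number of genes, 23 as reported, was 47 with no floor on the mean level, 11 with a floor of 5 CPM, 90 with a gap of 0.25, 11 with 0.75, 3 with 1, and 13 with the mutant difference required to be above 0. Leaving out single libraries gave 19 to 263 genes, and leaving out M82 library 3 without GA3 together with M82 library 2 with GA3 gave 282. Counts of the 23 genes called are small. Shares of all genes called were computed only for the edgeR fit as reported and for DESeq2. The counts under other settings therefore cannot be set against all genes. For GA3 in M82, 0 as reported, they were 2 with no filter and 3 with DESeq2, and 0 to 1 without single libraries. For the genotypes without GA3, 4 as reported, they were 10 with no filter and 12 with DESeq2, and 0 to 6 without single libraries. For the genotypes with GA3, 0 as reported, they were 2 with no filter, 4 with DESeq2 and 1 in a fit of the 4 compared libraries, and 0 to 2 without single libraries. For the mutant without GA3 against M82 with GA3, 0 as reported, they were 1 with no filter, 3 with DESeq2 and 3 in the 4 compared libraries, and 0 to 2 without single libraries. GA3 in the mutant gave 0 under every setting run. The cause of these shifts was not tested. Correlations of the deviations of libraries numbered 1 ran from -0.0218 to 0.421 over the pairs of groups, with 0.421 between M82 with and without GA3, so libraries of the same number did not deviate together in every pair of groups, and the numbers were not taken to pair them. With the replicate block the counts were 0 for GA3 in the mutant and 3 for the genotypes without GA3. The number 2 occurs only in M82 library 2 with GA3, so this block leaves M82 with GA3 resting on 1 library. Counts from this block for comparisons with that group are therefore left out. With a block that sets libraries numbered 1 apart from the rest they were 1 for GA3 in M82, 0 for GA3 in the mutant, 7 and 2 for the genotypes without and with GA3, and 1 for the mutant without GA3 against M82 with GA3. Depth limits the 7 genes with under 20 reads in some library.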
